A study of Sus scrofa with 34 samples.

Results

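The genes described here are the enzymes and regulators of de novo fat synthesis, the making of fatty acids from carbohydrate. They were taken by symbol: FASN, ACACA, ACACB, ACLY, SCD, ELOVL6, ME1, SREBF1, MLXIPL and THRSP. Of these 10 genes, 9 had a row among the 25880 genes of the pig count tables, and ACACB was not analysed here. All 9 passed the filter on low counts in liver, where 13831 genes were tested, and 8 passed it in ileum, where 14300 genes were tested. THRSP did not pass it in ileum.

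RNA was sequenced from the liver and ileum of weaned crossbred piglets on day 28 of a feeding trial. The 4 diets were a basal control diet (CTR), the basal diet with an essential oil-based phytogenic feed additive (PFA), a diet with oxidized rapeseed oil (OO), and the oxidized oil diet with the additive (OO + PFA). Liver was sequenced from 6 piglets of each diet, and 1 OO + PFA library, that of pig OP-77, was left out of the fits as the study did, which leaves 5. The paper gives suspected RNA degradation as the reason, and it reports a lower minimum of RNA quality for liver than for ileum. Ileum was sequenced from 5 CTR and 5 PFA piglets, and all of these 10 piglets are among those with a liver library. Piglets of a diet shared a pen, which makes the effect of the pen one that cannot be told apart from that of the feed. The oil diets also held more fat than the others and no diet with as much fresh oil was fed, so oxidation and added fat cannot be told apart either. Replicates are separate piglets.

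In fat synthesis, citrate exported from the mitochondrion is cut to acetyl-CoA by ACLY, and acetyl-CoA is carboxylated to malonyl-CoA by ACACA. FASN builds palmitate from both with NADPH, part of which comes from malic enzyme ME1. ELOVL6 lengthens palmitate and SCD puts in a double bond. SREBF1 and MLXIPL encode the transcription factors that carry the insulin and the sugar signal to these genes. THRSP encodes a small protein, Spot 14, that rises with fat synthesis. In pigs the main site of this pathway is adipose tissue, and the liver makes less.

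The 250 bases before the RefSeq start of 3 genes are given here because these genes carry the liver results. THRSP and ACACA were lower with the oil, and the FASN value changed with a correction for base composition. All 10 symbols were found in RefSeq. The sequences are from RefSeq on build Sscrofa11.1, written 5′ to 3′ on the gene's own strand, and capitals mark matches to a CCAAT box (CCAAT, or ATTGG on the other strand) or a GC box (GGGCGG, or CCGCCC on the other strand). THRSP lies on chromosome 9 (12479913-12484323, plus strand), ACACA on chromosome 12 (38580916-38875067, minus strand) and FASN on chromosome 12 (922405-937560, plus strand).
THRSP, chr9:12479663-12479912: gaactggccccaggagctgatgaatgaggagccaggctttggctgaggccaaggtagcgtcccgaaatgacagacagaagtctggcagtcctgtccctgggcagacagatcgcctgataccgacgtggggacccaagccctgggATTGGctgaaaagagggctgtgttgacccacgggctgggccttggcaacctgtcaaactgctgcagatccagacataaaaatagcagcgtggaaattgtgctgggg
ACACA, chr12:38875068-38875317: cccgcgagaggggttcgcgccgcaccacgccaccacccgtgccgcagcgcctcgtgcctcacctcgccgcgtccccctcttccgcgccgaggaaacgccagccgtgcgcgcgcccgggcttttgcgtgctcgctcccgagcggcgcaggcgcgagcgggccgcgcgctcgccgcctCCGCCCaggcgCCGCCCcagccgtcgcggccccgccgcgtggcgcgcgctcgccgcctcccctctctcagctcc
FASN, chr12:922155-922404: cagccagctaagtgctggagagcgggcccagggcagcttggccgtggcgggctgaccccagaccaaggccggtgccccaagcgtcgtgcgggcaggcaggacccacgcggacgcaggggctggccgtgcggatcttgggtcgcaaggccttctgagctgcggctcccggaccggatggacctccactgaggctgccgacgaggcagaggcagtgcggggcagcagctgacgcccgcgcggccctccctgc
The THRSP window held 1 CCAAT box, 106 bases before the start. The ACACA window held 2 GC boxes, 74 and 63 bases before the start, and the FASN window held neither motif. Over the 10 genes, 4 windows held a CCAAT box and 5 a GC box, against 32% and 44.4% of 20664 pig promoter windows of the same length. The E-box CACGTG and the sterol response element core TCACNCCAC were in 0 of the 10 windows, against 6.16% and 0.769% of all windows. The motifs were searched on both strands, and no match says only that these letters are not in this window.

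The libraries held 18738055 to 42446834 counts in liver and 18772230 to 24338165 in ileum. Levels are given as CPM, counts scaled to a library of 1000000 counts with TMM factors. Hepatocyte markers summed to between 100411 and 230065 CPM in the 23 fitted livers and enterocyte markers to between 18528 and 35588 CPM in the ileum. Liver libraries differed in base composition, measured as the slope of log2 CPM on the GC content of genes: the slope per 10% GC ran from -0.205 to 0.083 in CTR, -0.474 to 0.067 in PFA, -0.379 to 0.418 in OO and 0.041 to 0.487 in OO + PFA. In this bulk tissue, fewer cells of a type and less RNA per cell cannot be told apart.

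Per kilobase of exon, the CTR liver ranked THRSP first at 876 ± 255 CPM per kb (SD, n = 6) and SCD next at 269 ± 84.0. MLXIPL (82.3 ± 40.6), ELOVL6 (62.3 ± 20.7) and FASN (60.3 ± 23.9) followed and neighbours among them differed by less than their SD. ACLY (21.5 ± 4.88) and ACACA (18.04 ± 5.51) also differed by less than their SD. SREBF1 (10.9 ± 3.71) and ME1 (1.31 ± 0.461) came last.

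As counted, THRSP and ACACA were the fat synthesis genes that passed the test between liver diets, and both were lower in piglets fed the oil. With a correction for base composition, described below, FASN and MLXIPL were lower in OO against CTR as well. Base composition itself differed between diets, so for these 2 genes diet and library cannot be told apart. Across the 4 liver diets, 2 of the 9 genes passed an adjusted p of 0.05 in edgeR's quasi-likelihood test, THRSP (adjusted p = 0.00189) and ACACA (adjusted p = 0.0383), where 3.66% of all genes tested did. Without any 1 of 14 of the 23 pigs (C-71, C-80, C-85, C-100, C-110, P-95, OO-88, OO-99, OO-102, OO-130, OP-79, OP-105, OP-126 or OP-137) 1 gene passed. The other 7 genes, from transcription factors to desaturase, had adjusted p-values between 0.275 and 0.765.

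THRSP, the Spot 14 gene, lay at a lowest, median and highest level of 465, 945 and 1115 CPM in CTR, 624, 876 and 1556 CPM in PFA, and 320, 460 and 563 CPM in OO. In the 5 OO + PFA livers it was at 397, 451, 468, 286 and 387 CPM. The oil-fed livers were low: 7 of 11 lay below the lowest of the 12 livers without oil, and 11 of those 12 lay above the highest oil-fed liver, the exception being the CTR pig C-80. The log2 fold change of OO against CTR was -0.97 (SE 0.22, adjusted p = 0.0188, edgeR), 1.96-fold lower. For OO + PFA against CTR it was -1.13 (SE 0.24, adjusted p = 0.0137), and for OO + PFA against PFA -1.20 (SE 0.24, adjusted p = 0.00814). The OO + PFA and PFA livers did not overlap for THRSP, as was so for 1.80% of all genes in that direction. These contrasts share samples, so they are not independent of each other.

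ACACA, acetyl-CoA carboxylase 1, which makes the malonyl-CoA that FASN uses, lay at 132, 213 and 335 CPM in CTR (lowest, median, highest), 117, 166 and 238 CPM in PFA, and 111, 125.8 and 167 CPM in OO. In OO + PFA it was at 117, 161, 117, 103 and 109 CPM. The diets overlapped, with 6 of 11 oil-fed livers below the lowest liver without oil and 8 of 12 livers without oil above the highest oil-fed one. The log2 fold change was -0.75 (SE 0.20, adjusted p = 0.0438, edgeR) for OO against CTR and -0.84 (SE 0.21, adjusted p = 0.0267) for OO + PFA against CTR. For OO + PFA against PFA it was -0.51 (SE 0.21, adjusted p = 0.151) and did not pass. The OO against CTR call was lost without any 1 of 11 of the 23 pigs (C-71, C-80, C-85, C-100, C-110, OO-88, OO-99, OO-102, OO-130, OP-105 or OP-126), with adjusted p-values up to 0.118. The OO + PFA against CTR call was lost without any 1 of 6 pigs (C-71, C-85, C-110, OP-79, OP-126 or OP-137), with adjusted p-values up to 0.0631. Without OO-102, THRSP was at an adjusted p of 0.0516 in OO against CTR, so that 0 of the 9 genes passed.

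Set against the background, 2 of 9 genes were lower in OO against CTR where 1.34% of all genes were, and 2 of 9 were lower in OO + PFA against CTR where 0.991% were. In OO + PFA against PFA, 1 of 9 was lower where 0.333% of genes were. Averaged over both additive levels, the oil lowered THRSP by a log2 fold change of -1.09 (SE 0.16, adjusted p = 0.000159, edgeR) and ACACA by -0.63 (SE 0.14, adjusted p = 0.00883), where 2.83% of all genes were lower and 8.95% higher. Both calls of this averaged effect held without any 1 of the 23 pigs, with THRSP between -1.15 and -0.97 and ACACA between -0.69 and -0.55. The median log2 fold change of the 9 genes was -0.09, beside 0.01 over all genes.

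The liver sample titles come in 2 forms, and the oil difference was computed within each. In the form with 7 oil-fed and 7 other livers, mean log2 CPM with oil minus without was -1.23 for THRSP and -0.55 for ACACA. In the form with 4 oil-fed and 5 other livers it was -0.73 for THRSP and -0.63 for ACACA. FASN (0.22 and -0.51), SCD (-0.37 and 0.21), ELOVL6 (-0.42 and 0.33), ACLY (-0.21 and 0.11) and SREBF1 (0.57 and -0.12) had opposite signs in the forms. Cell type markers were measured beside these results. Of the 9 hepatocyte markers tested, 1 (TF, transferrin) was lower with the oil as counted, and of 6 adipocyte markers tested, 4 (PLIN1, CIDEC, FABP4 and PCK1) were higher, of which PLIN1 and FABP4 also passed with a correction for GC content described below. The adipocyte list summed to between 184 and 1031 CPM without oil and between 332 and 4107 CPM with it, while leptin (LEP) was at 0 counts in every fitted liver and adiponectin (ADIPOQ) at 0 to 3. PCK1 is also among the insulin and sugar genes below, so this sum does not measure adipocytes alone. In the same contrast 1 of 10 immune markers (MARCO, higher), 1 of 5 enterocyte markers (APOA4, higher) and 0 of 7 smooth muscle markers passed.

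**Figure D1:**
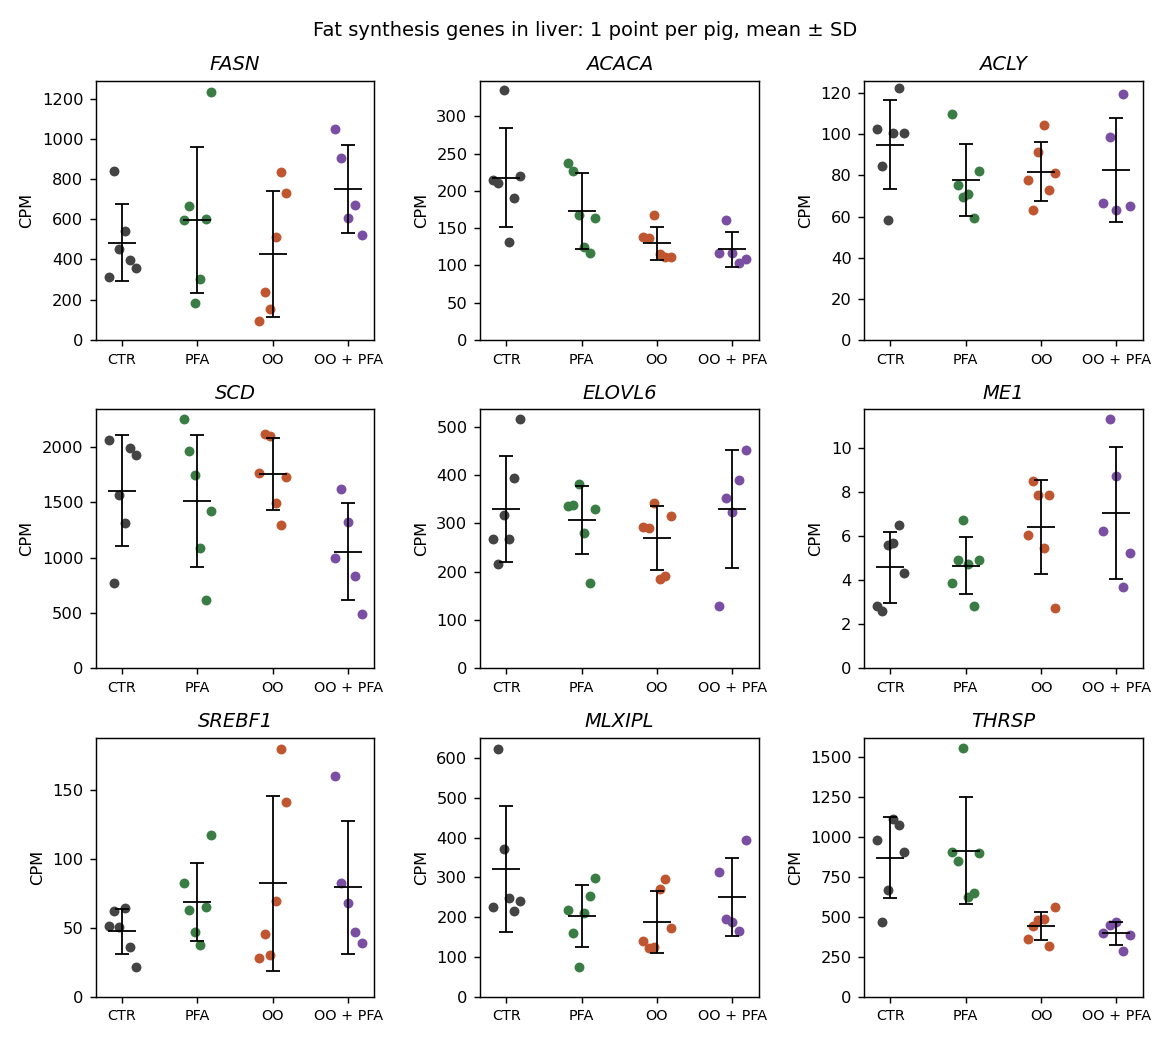
CPM (vertical axis, starting at 0) of the 9 fat synthesis genes in liver by diet, 1 point per pig, with the mean and SD of each diet. THRSP shows the oil-fed livers at 286 to 563 CPM and the livers without oil at 465 to 1556 CPM, while the FASN points of one diet spread widely.

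FASN, the synthase itself, ran from 312 through 424 to 840 CPM in CTR (lowest, median, highest), 185, 599 and 1230 CPM in PFA and 96.3, 376 and 835 CPM in OO. In OO + PFA it was at 1050, 904, 607, 670 and 521 CPM. The diets overlapped widely, and the highest liver (P-138) was 12.8 times the lowest (OO-74). The log2 fold change was -0.18 (SE 0.45, 95% interval -1.10 to 0.74) for OO against CTR and 0.63 (SE 0.47, interval -0.33 to 1.60) for OO + PFA against CTR, neither past the test as counted. With the GC correction described below, FASN was at -0.93 (adjusted p = 0.0121, edgeR) for OO against CTR and passed, and at -0.34 (adjusted p = 0.395) for OO + PFA against CTR. Its SD within diets, 0.88 on the log2 scale, was at the 98.6th percentile of the 7290 genes with a mean of 10 CPM or more, where the median SD was 0.27.

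SCD and ELOVL6 modify the palmitate that FASN makes. SCD, the desaturase, was at 769, 1745 and 2065 CPM in CTR, 620, 1584 and 2250 CPM in PFA, and 1298, 1747 and 2119 CPM in OO, with 1000, 1622, 1326, 831 and 491 CPM in OO + PFA. The OO + PFA livers held both low and middling values, and the log2 fold change of OO + PFA against OO was -0.73 (SE 0.31, unadjusted p = 0.0250, adjusted p = 0.522, edgeR). ELOVL6, the elongase, was at 215, 293 and 516 CPM in CTR, 177, 333 and 380 CPM in PFA, and 186, 292 and 342 CPM in OO, with 130, 352, 323, 390 and 453 CPM in OO + PFA. Its diets overlapped, and the averaged oil effect was -0.09 (SE 0.18, interval -0.47 to 0.28).

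ACLY and ME1 supply acetyl-CoA and NADPH. ACLY, ATP-citrate lyase, was at 58.6, 101 and 123 CPM in CTR, 59.4, 73.0 and 110 CPM in PFA, and 63.3, 79.5 and 104 CPM in OO, with 66.5, 98.8, 63.3, 120 and 65.4 CPM in OO + PFA. Its diets overlapped and the averaged oil effect had the narrowest interval of the 9 genes, -0.06 (SE 0.13, interval -0.34 to 0.21). ME1, cytosolic malic enzyme, was the lowest of the genes in liver, at 2.61, 4.96 and 6.48 CPM in CTR, 2.85, 4.81 and 6.71 CPM in PFA and 2.75, 6.94 and 8.51 CPM in OO, with 6.22, 11.3, 8.72, 3.70 and 5.23 CPM in OO + PFA. The averaged oil effect on ME1 was 0.54 (SE 0.21, unadjusted p = 0.0163, adjusted p = 0.0925, edgeR) and did not pass the test.

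SREBF1 and MLXIPL encode the factors that switch the pathway on. SREBF1 was at 21.8, 50.8 and 64.4 CPM in CTR, 37.9, 64.2 and 118 CPM in PFA, and 28.2, 57.6 and 180 CPM in OO, with 161, 82.5, 68.1, 46.8 and 39.4 CPM in OO + PFA. Its averaged oil effect was 0.50 (SE 0.31, adjusted p = 0.306, edgeR) with widely overlapping diets. MLXIPL, which encodes ChREBP, was at 216, 245 and 623 CPM in CTR, 75.2, 215 and 299 CPM in PFA, and 123, 157 and 296 CPM in OO, with 312, 197, 188, 164 and 394 CPM in OO + PFA. For MLXIPL the log2 fold change of OO against CTR was -0.77 (SE 0.32, unadjusted p = 0.0259, adjusted p = 0.170, edgeR) and the diets overlapped.

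The additive moved none of the genes past the test in liver. PFA against CTR had 0 of 9 called, with log2 fold changes from -0.66 (MLXIPL, interval -1.33 to 0.01) to 0.53 (SREBF1, interval -0.35 to 1.41), and OO + PFA against OO had 0 of 9 called, from -0.73 (SCD) to 0.81 (FASN, interval -0.15 to 1.78). In both contrasts 0% of all genes passed edgeR's test at an adjusted p of 0.05, while 1522 and 1176 genes were at an unadjusted p under 0.05 and DESeq2 called 43 and 31. The interaction of oil and additive also called 0 of 9 and 0% of all genes, with 1881 at an unadjusted p under 0.05 and 150 called by DESeq2. Its largest value among the 9 was MLXIPL at 1.08 (SE 0.47, adjusted p = 0.322).

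**Figure D2:**
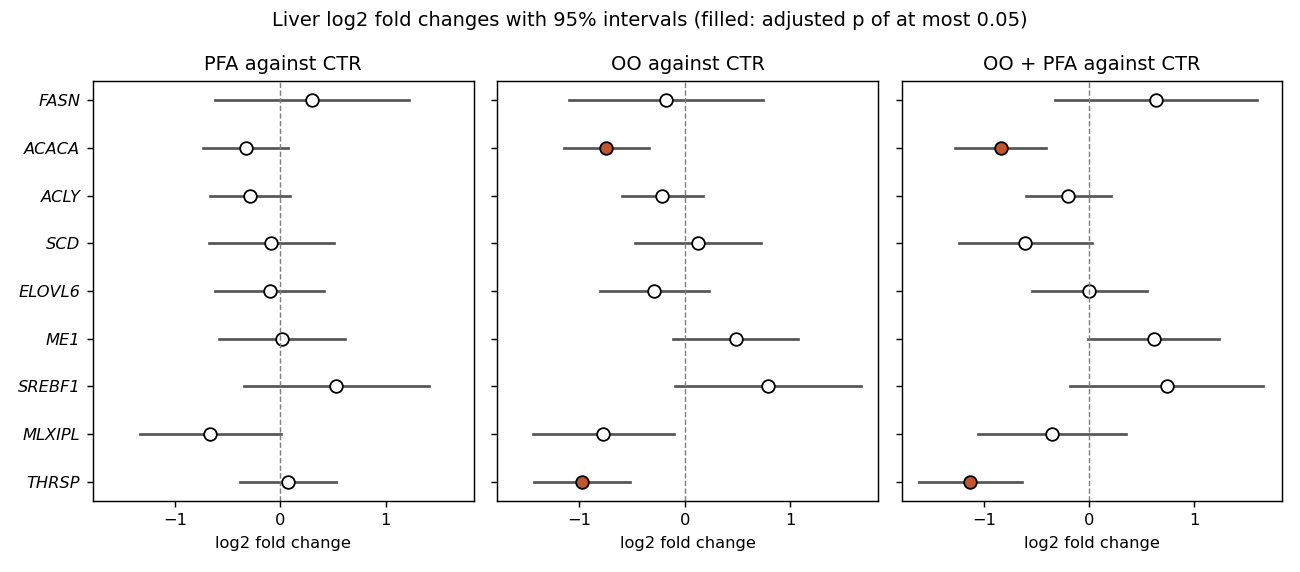
Log2 fold changes (horizontal axis) with 95% intervals of the 9 genes in liver for PFA, OO and OO + PFA, each against CTR, with filled points where the adjusted p is at most 0.05. THRSP and ACACA are filled in both oil contrasts (-0.97 and -0.75, -1.13 and -0.84) and no gene is filled for PFA.

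The spread of FASN, SREBF1 and MLXIPL went with the base composition of the libraries. These are the GC-rich members, with exons of 67.1%, 68.6% and 64.4% GC, and over the 23 livers, after taking out diet means, their log2 CPM correlated with the library's GC slope at r = 0.92, 0.82 and 0.73. The other genes, at 43.7% to 54.6% GC, had r between -0.56 (ELOVL6) and -0.08 (ACLY). THRSP and ACACA, at 52.2% and 52.8% GC, had r of -0.26 and -0.33. These correlations describe points that share library and depth and carry no test.

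A correction of each library for GC content changed which genes passed. The GC slope also differed by diet, with medians of -0.109 in CTR, -0.117 in PFA, 0.073 in OO and 0.172 in OO + PFA. The correction therefore also takes out any shift of GC-rich genes that goes with the diet. For such genes an oil effect and a difference between libraries cannot be told apart. GC content was known for 79.8% of the liver genes tested, under the 80% set for a check over all genes, and for all 9 genes here. Corrected values are therefore given for the fat synthesis genes and the lists below. Corrected counts over all genes cover only the 11037 genes with a known GC content. The SD within diets fell from 0.88 to 0.38 for FASN, from 0.80 to 0.46 for SREBF1 and from 0.61 to 0.42 for MLXIPL, while that of THRSP was 0.40 before and after. With the correction the averaged oil effect on FASN turned from 0.08 (SE 0.32, adjusted p = 0.913) to -0.68 (SE 0.16, adjusted p = 0.00718, edgeR). MLXIPL went from -0.23 (adjusted p = 0.561) to -0.71 (SE 0.17, adjusted p = 0.00807), and ME1 from 0.54 to 0.62 (SE 0.19, adjusted p = 0.0436). SREBF1 turned from 0.50 to -0.45 (SE 0.17, adjusted p = 0.0989) and did not pass either way. THRSP (-1.07, adjusted p = 0.000106) and ACACA (-0.62, adjusted p = 0.00723) kept their size. In OO against CTR, 4 of 9 genes were lower with the correction: FASN (-0.93, adjusted p = 0.0121), MLXIPL (-1.08, adjusted p = 0.00681), ACACA (-0.72, adjusted p = 0.0274) and THRSP (-0.94, adjusted p = 0.0122). In OO + PFA against CTR, 3 were lower: MLXIPL (-1.06), THRSP (-1.06) and ACACA (-0.80), with FASN at -0.34 (adjusted p = 0.395). Fitted without the correction on the same GC-known genes, the fat synthesis genes called were those of the whole table. Of these 11037 genes, 333 were called in OO against CTR without the correction and 810 with it, in either direction. In OO + PFA against CTR the counts were 604 and 751, and for the averaged oil effect 1343 and 1067.

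**Figure D3:**
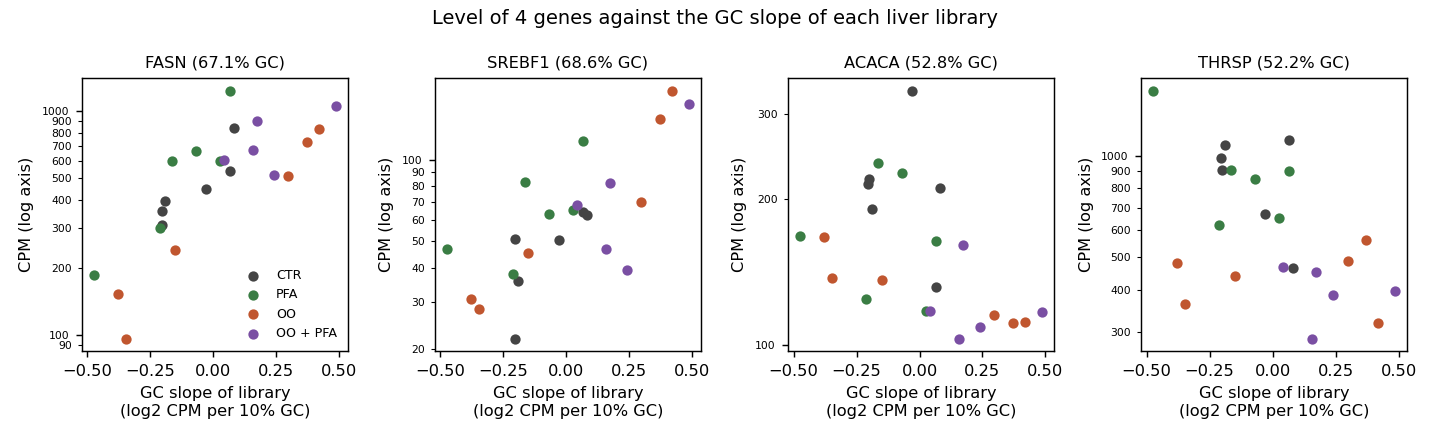
CPM on a log axis against the GC slope of each liver library (log2 CPM per 10% GC) for FASN, SREBF1, ACACA and THRSP, 1 point per pig coloured by diet. FASN and SREBF1 climb with the slope within diets (r = 0.92 and 0.82 after taking out diet means), and all OO + PFA libraries lie above a slope of 0.

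**Figure D4:**
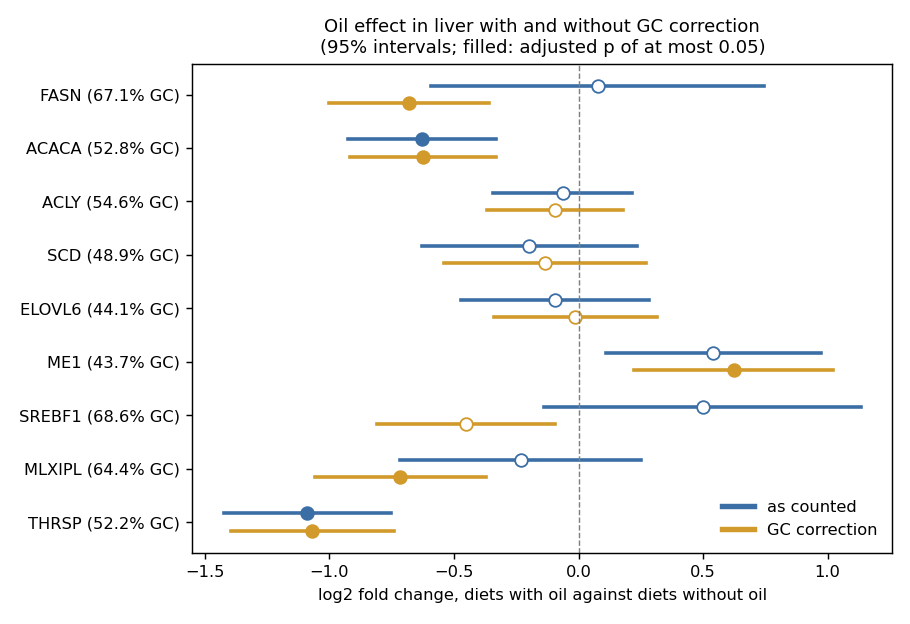
Averaged oil effect in liver (log2 fold change, horizontal axis) with 95% intervals for the 9 genes, as counted and with the GC correction, filled where the adjusted p is at most 0.05. FASN moves from 0.08 to -0.68 and MLXIPL from -0.23 to -0.71, while THRSP and ACACA stay in place.

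The genes were also compared with each other across pigs. Of the 36 pairs over the 23 livers, with diet means taken out and 100000 permutations within diets, 6 passed an adjusted p of 0.05. FASN and SREBF1 had Pearson's r = 0.85 (adjusted permutation p = 0.00072) and Spearman's rho = 0.83 (adjusted permutation p = 0.00144), with r = 0.86 without the 2 farthest livers. FASN and MLXIPL had r = 0.66 (adjusted permutation p = 0.0311) and rho = 0.67 (0.0209), with r = 0.58 without the 2 farthest. SCD and THRSP had r = 0.60 (adjusted permutation p = 0.0426) and rho = 0.53 (0.0792), with r = 0.64 without the 2 farthest. The other 3 were negative. SCD and MLXIPL had r = -0.63 (adjusted permutation p = 0.0413) and rho = -0.53 (0.0792), with r = -0.59 without the 2 farthest. ELOVL6 and SREBF1 had r = -0.59 (adjusted permutation p = 0.0426) and rho = -0.59 (0.0553), with r = -0.57 without the 2 farthest. MLXIPL and THRSP had r = -0.62 (adjusted permutation p = 0.0426) and rho = -0.46 (0.136), with r = -0.33 without the 2 farthest, so that this relation rests on those livers. By rho 3 pairs passed, FASN with SREBF1, FASN with MLXIPL, and ACACA with SCD, whose rho was 0.69 (adjusted permutation p = 0.0115) and whose r of 0.59 (0.0509) did not pass, with r = 0.70 without the 2 farthest. With the GC correction 0 of the 36 pairs passed. FASN with SREBF1 was then at r = 0.28, SCD with THRSP at 0.57 (adjusted permutation p = 0.140) and MLXIPL with THRSP at -0.63 (0.126).

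Among all genes, the patterns most like FASN over the 23 livers were those of MIB2 (r = 0.97), BOP1 (0.96), IRAK1 (0.96), INTS1 (0.95) and C19orf81 (0.95), and the 4 of these with a known GC content held 67.1% to 68.4% GC, beside 67.1% for FASN. The gene most like THRSP was HSD11B1 (r = 0.85), most like SCD was PGM2 (0.86), most like ELOVL6 was MET (0.89), and most like ACLY was ZNF662 (0.72). MLXIPL was most like PLEKHG3 (0.97), SREBF1 like MON1A (0.93), ME1 like DSC2 (0.79) and ACACA like ENSSSCG00000034310 (0.76).

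Genes that feed or control the pathway differed in direction with the oil in liver, and the log2 values given for them are averaged oil effects. Of 18 genes of carbon and NADPH supply, 3 were higher and 0 lower, where 8.95% of all genes were higher and 2.83% lower. Among the higher were the citrate carrier SLC25A1 (0.60, SE 0.15, adjusted p = 0.0140, edgeR) and the mitochondrial malic enzyme ME3 (0.94). With the GC correction only ME3 remained, and SLC25A1 was at 0.22 (adjusted p = 0.202). ACSS2, which makes acetyl-CoA from acetate, was at -0.24 and did not pass the test. Of 21 genes of SREBP and LXR control, 5 were higher and 2 lower as counted, beside the same 8.95% and 2.83% of all genes. The nuclear receptor NR0B2 (2.20) and KLF15 (0.72) were higher and SP1 (-0.53) and the ChREBP partner MLX (-0.27) lower, and these 4 also passed with the GC correction. INSIG1 (0.09) and the LXR gene NR1H3 (-0.20) did not pass as counted, and NR1H3 did with the GC correction (-0.43, adjusted p = 0.0400). SREBF2 (0.41), SCAP (0.39) and PPARGC1B passed as counted and did not with the correction.

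Of 20 genes of insulin and sugar input, 4 were higher and 1 lower, where 8.95% of all genes were higher and 2.83% lower. The lower one was PKLR, liver pyruvate kinase and a ChREBP target, which was at 194, 270 and 337 CPM in CTR (lowest, median, highest) and at 92.0, 127 and 150 CPM in OO, without overlap, as was so for 1.46% of genes in that direction. Its averaged oil effect was -0.81 (SE 0.13, adjusted p = 0.000373, edgeR). The higher ones were IRS2 (1.52), PFKL (1.66), PCK1 (0.93) and IGFBP1. With the GC correction 2 were higher (IRS2 and PFKL) and 3 lower, PKLR among them. Of 16 genes of AMPK and carboxylase control, 2 were higher and 1 lower, beside the same shares of all genes. MLYCD (1.51), which breaks down malonyl-CoA, and TRIB3 (1.47) were higher and CAMKK2 (-0.26) lower. MID1IP1, which binds the carboxylase, was at 0.39 (adjusted p = 0.221).

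Of 15 glyceride assembly genes tested, 4 were higher and 1 lower, where 8.95% of all genes were higher and 2.83% lower. The lipid droplet gene PLIN2 (1.63), GPAT3 (0.73), AGPAT2 (0.91) and the lipase PNPLA2 (1.57) were higher, and DGAT2 (-0.43) was lower. GPAM (-0.20) and PNPLA3 (-0.05) did not pass. With the GC correction DGAT1 passed as lower too, and AGPAT2 no longer passed (0.12, adjusted p = 0.572). Of 16 fatty acid oxidation genes, which work against synthesis, 12 were higher and 0 lower as counted and with the GC correction, beside the same shares of all genes as counted, with a median of 0.78 beside 0.01 over all genes. CPT1A, which malonyl-CoA inhibits, was at 57.1, 74.1 and 88.4 CPM in CTR and 172, 235 and 267 CPM in OO, without overlap (0.781% of genes in that direction), and its averaged oil effect was 1.51 (SE 0.11, adjusted p = 2.29e-09, edgeR). CPT2 (1.59) and ACADVL (1.34) rose as well. In all of these lists 0 genes passed in PFA against CTR, in OO + PFA against OO and in the interaction.

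In ileum, PFA against CTR called 0 of 8 genes and 0% of all genes by edgeR's test, with 401 genes at an unadjusted p under 0.05 and 4 called by DESeq2. Of the 8 genes, 4 were at an unadjusted p under 0.05, where 2.80% of all genes were, all higher with PFA and all at an adjusted p of 0.991. SCD was at 234, 97.4, 184, 136 and 142 CPM in CTR and 241, 263, 265, 289 and 522 CPM in PFA. The SCD groups did not overlap, as was so for 0.455% of genes in that direction, and its log2 fold change was 0.99 (SE 0.26, unadjusted p = 0.00283). ELOVL6 was at 74.6, 57.2, 65.4, 47.8 and 48.9 CPM in CTR and 71.3, 80.6, 78.4, 79.7 and 135 CPM in PFA, a log2 fold change of 0.60 (SE 0.19, unadjusted p = 0.00875). ME1 was at 5.61, 4.67, 4.39, 3.50 and 3.15 CPM in CTR and 5.27, 4.20, 5.44, 5.48 and 26.7 CPM in PFA, so that its log2 fold change of 1.14 (SE 0.50) rests on 1 library. ACACA was at 76.2, 77.2, 76.7, 61.6 and 63.5 CPM in CTR and 74.4, 82.9, 82.5, 85.5 and 108 CPM in PFA, a log2 fold change of 0.29 (SE 0.12).

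The highest PFA value of SCD, ELOVL6, ME1, ACACA and ACLY came from the same piglet, P-95, whose ileum library stood apart. THRSP had 1540 counts there and 0 to 17 in the other 9 ileum libraries, where a count of 0 allows up to 0.149 CPM in the CTR pig C-100. The adipocyte hormone gene ADIPOQ had 1807 counts in it against 0 to 8, FABP4 471 against 13 to 62 and LEP 17 against 0, and the lipid droplet gene PLIN1 was at 5.92 CPM against 0 to 0.457 CPM. Not every marker on the list was raised: LIPE was at 5.83 CPM in P-95 and at 3.77 to 8.03 CPM in the other 4 PFA ilea. All 9 adipocyte markers found in the table were above 0 in P-95 and 7 or 8 in the others, and the list summed to 181 CPM there and to between 58.3 and 146 CPM in the others. The list holds PCK1, so here too the sum does not measure adipocytes alone. Without P-95, SCD was at 0.72 (SE 0.22, unadjusted p = 0.00823, edgeR) and ELOVL6 at 0.38 (SE 0.14, unadjusted p = 0.0239), while ME1 fell to 0.24, ACACA to 0.18 and ACLY to -0.02. All 8 genes were then at an adjusted p of 1.00. The enterocyte markers were all below 0 in PFA against CTR (8 of 8, median log2 fold change -0.27, 0 past the test) and summed to between 18528 and 28379 CPM in PFA and between 24803 and 35588 CPM in CTR. The part of RNA from adipocytes or of fewer enterocytes in these values was not tested.

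FASN, SREBF1 and MLXIPL varied widely in ileum, as in liver. FASN was at 93.1, 12.8, 101, 61.9 and 38.7 CPM in CTR and 29.6, 165, 19.2, 26.5 and 67.3 CPM in PFA, with a log2 fold change of 0.00 (SE 0.63, interval -1.39 to 1.39). P-134, the highest library for FASN and, among PFA, for SREBF1 (49.3 CPM), had the highest GC slope of the ileum libraries (0.373), and P-138, with FASN at 19.2 CPM, had the lowest (-0.373). MLXIPL was at 33.6, 15.4, 60.2, 23.4 and 28.2 CPM in CTR and 22.1, 30.0, 15.6, 19.4 and 20.3 CPM in PFA, a log2 fold change of -0.58 (SE 0.31), which was -0.23 with the GC correction and -0.23 without C-71, the highest library. SREBF1 was at -0.37 as counted and 0.06 with the GC correction. None of the pathway or marker lists had a gene past the test in ileum.

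**Figure D5:**
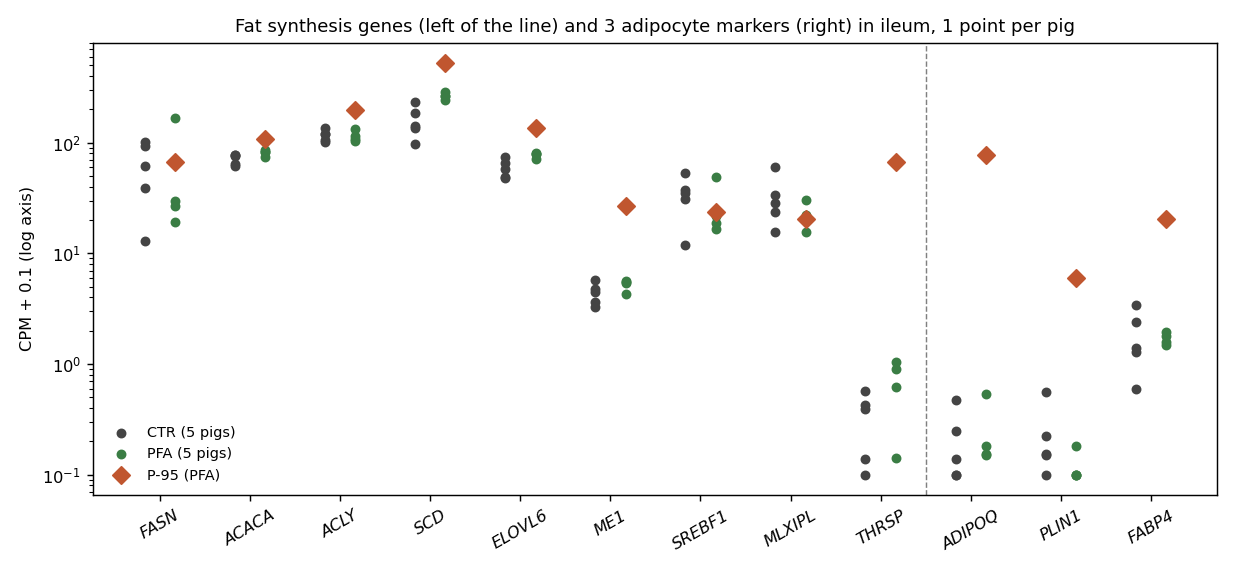
CPM + 0.1 on a log axis of the fat synthesis genes (left of the line) and 3 adipocyte markers (right) in ileum, 1 point per pig for 5 CTR and 5 PFA piglets, with P-95 as a diamond. P-95 holds the highest SCD (522 CPM), ELOVL6 (135 CPM), ME1 (26.7 CPM) and THRSP (66.5 CPM) and stands far above the others for the 3 adipocyte markers shown.

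The tissues were compared in the 10 piglets with both, in a main fit that did not pair the ileum and liver libraries of a pig. The fold changes here rest on TMM factors set jointly over both tissues, so they cannot be read off the CPM given above, which are scaled within each tissue. Of the 8 genes kept by the low-count filter in both tissues, 7 were lower in ileum than in liver, where 37.5% of all genes were. The ileum and liver samples have different forms of title, and whether their libraries were made together is not given here. A difference between library sets, if there was one, cannot be told apart from tissue. The log2 fold change of ileum against liver was -4.35 for MLXIPL, -4.24 for FASN, -3.84 for SCD, -3.24 for ELOVL6, -2.28 for ACACA, -2.03 for SREBF1 and -0.58 for ACLY (adjusted p-values from 8.42e-13 to 8.49e-05, edgeR). THRSP, with 0 to 17 counts in 9 of the ileum libraries and at least 7588 in every fitted liver, is given by its counts alone.

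The direction of ACLY and ME1 depended on the scaling. With library totals alone in place of TMM factors, the median log2 fold change of all genes moved from 0.05 to 1.17, and the split of genes past the test from 6078 higher and 5621 lower to 10923 higher and 2075 lower. ACLY was then higher in ileum (0.54, SE 0.13, adjusted p = 0.000547, edgeR), at 124 ± 31.5 CPM (SD, n = 10) against 86.8 ± 22.5 CPM in liver, where the joint factors gave 84.0 ± 19.5 and 126.9 ± 27.8 CPM. Relative to the median of all genes ACLY was at -0.63 with the joint factors and at -0.62 with library totals. ME1 was at -0.64 (SE 0.30, adjusted p = 0.0588) with the joint factors and at 0.49 (adjusted p = 0.148) with library totals, neither past the test. With the joint factors and pig as a block ME1 was at -0.80 (SE 0.20, adjusted p = 0.00276), and without pig 95 at -1.01 (SE 0.19, adjusted p = 0.000103), both past it. The other 6 genes were lower under both scalings, from -3.24 (MLXIPL) to -0.92 (SREBF1) with library totals.

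The additive's effect did not pass the test of a difference between ileum and liver for any of the 9 genes, with 0% of all genes called and 739 at an unadjusted p under 0.05. Among the genes kept by the low-count filter in both tissues, ACLY, SCD, ACACA and ELOVL6 were at an unadjusted p under 0.05 by edgeR's test. Of all genes, 4.93% were under it. These genes were all at an adjusted p of 0.976. THRSP did not pass the low-count filter in ileum, so no value of it is given for this comparison. ACLY was at 0.69 (SE 0.22, unadjusted p = 0.00558, edgeR) and SCD at 1.21 (SE 0.46, unadjusted p = 0.0151). Without pig 95, ACLY was at 0.49 (unadjusted p = 0.0155, edgeR) and SCD at 1.06 (unadjusted p = 0.0306). ELOVL6 was then at 0.63 (unadjusted p = 0.0744, edgeR) and ACACA at 0.47 (unadjusted p = 0.0825), no longer under 0.05. The main fit did not pair the libraries of a pig. With pig as a block ACLY was at 0.65 (SE 0.22, unadjusted p = 0.0122, edgeR) and SCD at 1.23 (SE 0.37, unadjusted p = 0.00567), both at an adjusted p of 0.931.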

How the data were processed

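Total RNA was extracted from ileum and liver pieces and made into stranded poly(A) TruSeq libraries. The deposited values are raw counts per gene; per the labels, the authors aligned reads to Sscrofa11.1 with STAR 2.6.1d and counted them with HTSeq, and the labels also name DESeq2 1.22.2. Which annotation release and which strand setting were used for counting is not given in the sources used here. Reads assigned to no gene made up 23.3% to 26.1% in ileum and 13.5% to 36.7% in liver and stayed out of library sizes and tests. Depth was 18738055 to 42446834 counts, and no 2 libraries were identical.

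Counts were tested in R 4.3.3 with edgeR 4.0.16 (TMM factors, filterByExpr, quasi-likelihood test), in 1 fit of 23 livers by diet, 1 of 10 ilea and 1 of the 20 libraries of piglets with both tissues. The Benjamini-Hochberg adjustment ran over all genes tested, and an adjusted p of at most 0.05 was called. Standard errors are the absolute log2 fold change over the root of F. The averaged oil effect is the mean of OO minus CTR and OO + PFA minus PFA. Pairing by pig rests on the same animals. The correlation of their deviations ran from -0.181 to 0.456, with a median of 0.128. The GC correction is an offset per library from a lowess fit (span 0.5) of log2 CPM on GC content from RefSeq exons. Alternatives were DESeq2 1.42.0, its size factors, other filters, the GC correction, a term for the title form, all 24 livers, the 2 diets alone, library totals without TMM factors between tissues (chosen after seeing the data) and leaving out each pig.

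The genes and lists were chosen with earlier results of these data known. All 10 genes of fat synthesis were named, 12 list genes always (a few of which are not reported here), and other list genes up to 8 per list by smallest p among those past the test. For likeness, FASN was given its 5 most correlated genes and each other gene 1. The scripts were tested on simulated data.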

Additional observations from a re-analysis of the deposited data

Results flagged for a closer look

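Of 54 groups of values (9 genes in 6 groups of 5 or 6 piglets), 7 held a value set apart from its group by Dixon's test. For normal and independent values about 1 in 20 groups would be flagged. The genes here share libraries and the test ran on CPM, so that rate does not hold. The 7 values came from 4 libraries. In the PFA ileum, pig P-95 was apart for SCD at 522 CPM (the others 241 to 289), ELOVL6 at 135 CPM (71.3 to 80.6), ME1 at 26.7 CPM (4.20 to 5.48) and THRSP at 66.5 CPM (0.0412 to 0.933). In that library ADIPOQ had 1807 counts, against 0 to 8 in the other 9 ileum libraries. The liver library of the same pig was apart for THRSP at 1560 CPM, with the other PFA livers at 624 to 906. P-134 was apart for SREBF1 in the PFA ileum at 49.3 CPM (16.5 to 23.5), and OP-98 for ACACA in the OO + PFA liver at 161 CPM (103 to 117). The part of adipocyte RNA or of base composition in these values was not tested.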

How the results depend on the processing

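The liver calls of THRSP and ACACA under the averaged oil effect held without any 1 pig and under the other 8 alternatives, in which THRSP lay between -1.12 and -1.07 and ACACA between -0.66 and -0.61. The number of the 9 genes called in OO against CTR was 2 and became 4 with the GC correction and 1 each with no filter beyond 1 count, with all 24 livers and with the 2 diets alone. Across the 4 diets it was 2 and became 4 with the GC correction and 1 with no filter beyond 1 count, and for the averaged oil effect 2 became 5 with the GC correction, where FASN turned to -0.68. Over the 11037 genes with a known GC content, the correction took the calls from 333 to 810 in OO against CTR. They went from 461 to 803 across the 4 diets and from 1343 to 1067 for the averaged oil effect. Of 36 gene pairs, 6 passed by Pearson's r, 3 by Spearman's rho and 0 with the GC correction. Leaving out 1 pig gave 0 to 2 genes in OO against CTR, 1 to 2 across the 4 diets and 1 to 2 in OO + PFA against CTR.

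Pairing by pig, as a replicate block, made ME1 pass as lower in ileum than liver and changed no other call. With library totals alone, chosen after seeing the data, ACLY turned from -0.58 to 0.54 in ileum against liver. Over all genes, OO against CTR called 375, with 194 in the 2 diets alone, 1079 by DESeq2, and 167 to 1325 without 1 pig. OO + PFA against CTR called 702, with 1690 in the 2 diets alone and 191 to 1127 without 1 pig. OO + PFA against PFA called 218, with 1225 with all 24 livers and 103 to 411 without 1 pig. The averaged oil effect called 1630, with 837 to 2672 without 1 pig, and the 4 diets 506, with 1776 by DESeq2 and 297 to 1450 without 1 pig. PFA against CTR called 0 in liver, with 43 by DESeq2. Where DESeq2 gave no adjusted p for THRSP in ileum against liver, no value was taken. The causes of these shifts were not tested. Depth did not limit THRSP in liver, which had at least 7588 counts in each fitted library, while ME1 had 47 in its lowest.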

Other observations

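The OO + PFA liver of pig OP-77, left out of the fits, had THRSP at 352 CPM, ACACA at 103 CPM, SCD at 444 CPM, ELOVL6 at 98.5 CPM and FASN at 683 CPM. Its hepatocyte markers summed to 35951 CPM, against 116934 to 146738 CPM in the other 5 livers of that diet.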
